A study of Homo sapiens with 6 samples.

Results

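The tetraspanin genes were examined in A549 cells, an epithelial line derived from a human lung adenocarcinoma, with and without the gene of the microRNA miR-21. Members were chosen by gene name: protein-coding genes named TSPAN followed by a number, together with CD9, CD37, CD53, CD63, CD81, CD82, CD151, UPK1A, UPK1B, PRPH2 and ROM1, which gave 33 of the 58174 genes in the table. The family was picked out from among others because UPK1B was known to be almost lost in this same comparison, so the values of UPK1B are given as a description with no test. All cells were grown in DMEM with fetal bovine serum and harvested 48 hours after seeding. Ctrl is the parental population (3 libraries), and MIR21-KO carries a deletion at the MIR21 locus made by cutting with Cas9 on both sides of it (3 libraries), after which single sorted cells were expanded. How many clones the 3 MIR21-KO libraries came from is not given, so features of a clone and features of the deletion cannot be told apart.

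Tetraspanins are small proteins that cross the membrane repeatedly and bind other membrane proteins sideways, among them integrins, immunoglobulin-superfamily proteins and the protease ADAM10. They set where these partners reside, how they are trafficked and how long they stay at the surface, and several members are abundant in endosomes and in the extracellular vesicles made from them. In epithelial cells they are known for roles in adhesion and migration, and CD82 is known as a suppressor of metastasis.

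Because miR-21-5p is the RNA removed in MIR21-KO cells, its sequence is shown first. The seed (bases 2 to 8) is in capitals. The 22 bases of the mature form are encoded at chr17:59841273-59841294 on the plus strand (RefSeq, GRCh38.p14).
hsa-miR-21-5p: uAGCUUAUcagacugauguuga
The longest annotated 3′ UTR of each gene (GENCODE 29, GRCh38) was searched on the sense strand for ATAAGCT, the complement of the whole seed, for the shorter TAAGCT contained in it, and for both with a following A (ATAAGCTA and TAAGCTA). TSPAN2 was the only member of 33 with ATAAGCT, and it held this heptamer at 2 places in a 3′ UTR of 2479 bases. These sites are shown because TSPAN2 is also among the members with a higher level in MIR21-KO. Its call was lost on leaving out any single library, as given below. Capitals mark the match in each 28-base window. The first lies at chr1:115050024-115050051 and the second at chr1:115048419-115048446, both on the minus strand.
TSPAN2 first site: taatggaagtaATAAGCTgtaagaattg
TSPAN2 second site: cccttttggagATAAGCTttccaaaata
The hexamer TAAGCT was the best match in a further 5 members, namely TSPAN3, TSPAN31, TSPAN13, TSPAN18 and TSPAN12. Those of TSPAN3 (chr15:77046122-77046149, minus strand) and TSPAN13 (chr7:16783542-16783569, plus strand) are shown because the former is an abundant member and the latter a strongly lowered one.
TSPAN3 site: catggtaagtctTAAGCTtgttggaaat
TSPAN13 site: gtaattttctgtTAAGCTccatttgcca
The 3′ UTRs of the other 27 members held none of these matches, UPK1B with 1186 bases among them. Among the 24 members tested below, 4.17% held a 7-base or 8-base match, whereas 14.4% of 11644 protein-coding genes tested did. For the hexamer alone the shares were 16.7% and 13.5%. The members' 3′ UTRs were shorter, with a median of 1013 bases against 1370. A match describes letters in this window and does not identify a site in use.

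Between 10631667 and 13491638 reads were recovered from the Ctrl libraries and between 12444300 and 14345209 from the MIR21-KO libraries. Levels are given as FPKM, which divides reads by gene length and a library size, and 1 read on 1 kb equalled 0.0731 to 0.0930 FPKM. The library size implied by these values was 1.01 times the recovered reads in each Ctrl library. It was 0.95, 0.98 and 1.03 times them in MIR21-KO replicates 1, 2 and 3, so the deposited values hold a scaling beyond depth. The part of this scaling in differences between replicates was not tested. MIR21 itself was listed at 0 in all 6 libraries, so these polyA libraries did not check the deletion, while VMP1, the gene that overlaps it, rose from 75.1 ± 3.83 to 143 ± 7.18 FPKM (SD, n = 3 each; log2 fold change 0.92 ± 0.081 SE, limma FDR 0.000473). The epithelial keratins KRT8, KRT18 and KRT19 were abundant, and the summed level of 5 epithelial markers was 1194 to 1288 FPKM in Ctrl and 776 to 1106 in MIR21-KO. CDH1, the only call among the 5, fell from 8.18 ± 0.584 to 2.86 ± 0.148 (limma FDR 0.000175), and EPCAM stayed low at 0.389 to 1.65 FPKM. KRT18 went from 673 ± 25.3 to 422 ± 82.2 FPKM and KRT19 from 88.3 ± 4.73 to 109 ± 22.2 (limma FDR 0.0153 and 0.206). Of 4 fibroblast markers COL1A2 was listed at 0, THY1 was called higher and PDGFRB was below the filter. COL1A1 overlapped between the groups and was not called (log2 fold change 0.18, limma FDR 0.334). The sums of the 4 were 5.45 to 6.15 FPKM in Ctrl and 10.6 to 11.6 in MIR21-KO. Of the leukocyte markers, CD14 had 3.46 ± 0.294 and 4.31 ± 0.996 FPKM (SD, n = 3 each), PTPRC had at most 2 reads in a library and CD3E was listed at 0, and the summed level of the endothelial markers was at most 0.0707 FPKM. The part of these markers in the values below was not tested.

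A gene was tested where its mean over the 6 libraries was at least 0.5 FPKM. Changes are on the scale of log2(FPKM + 0.1), MIR21-KO minus Ctrl, and a call is an FDR under 0.01 (limma, two-sided, Benjamini-Hochberg over 16006 genes). The study describes its replicates as independent samples, while the number of clones is not given, so FDRs measure the spread between these libraries. In bulk RNA, fewer cells making a transcript and less of it in each cell cannot be told apart. With the gene length divided out, levels can be compared roughly between members. The length is 1 value per gene, such as 17888 bases for TSPAN14, and which transcripts were present was not determined. Rankings and shares of members carry this limit.

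The family's summed level overlapped between the groups. It was 439, 479.7 and 474 FPKM in the Ctrl libraries and 594, 524 and 434 in the MIR21-KO libraries, or 464 ± 21.9 and 517 ± 80.4 (SD, n = 3 each). MIR21-KO replicate 1 thus held the highest sum and replicate 3 the lowest of all 6. The 10 most abundant members made up 91.4% of the Ctrl sum and 90.7% of the MIR21-KO sum. CD63 and CD151 together accounted for 48.9% in Ctrl and 56.6% in MIR21-KO.

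**Figure D1:**
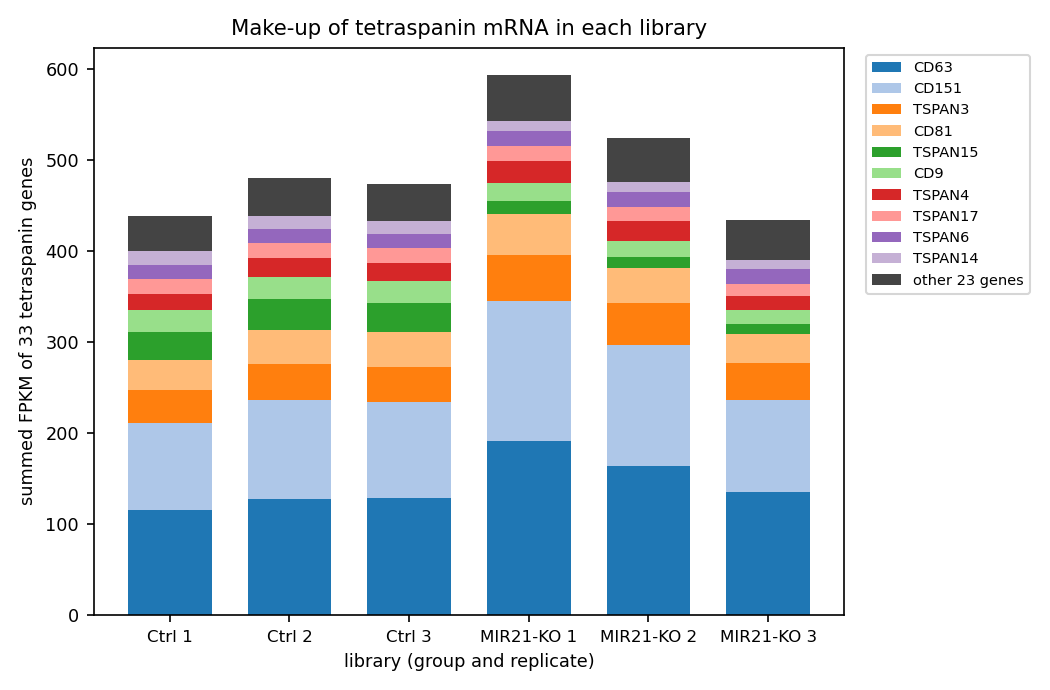
Summed FPKM of the 33 tetraspanin genes (vertical axis) in each of the 6 libraries (horizontal axis), with 1 coloured segment for each of the 10 most abundant members and a dark segment for the other 23. The bars run from 434 to 594 FPKM, CD63 and CD151 are the 2 tallest segments, at the foot of each bar, and TSPAN15 takes 6.90% to 7.14% of the Ctrl bars and 2.29% to 2.41% of the MIR21-KO bars.

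Of the 33 members, 24 passed the filter on low levels. Apart from UPK1B, 9 of the 23 others were called, 5 higher and 4 lower in MIR21-KO. The higher members were CD82, TSPAN9, ROM1, TSPAN7 and TSPAN2, and the lower ones were TSPAN13, TSPAN15, TSPAN33 and TSPAN14. Over all genes tested, 16.0% were called, 7.66% higher and 8.38% lower, and among protein-coding genes 19.7% were called and 10.6% were called lower. The groups' values did not overlap in 16 of these 23 members, 10 above and 6 below, whereas this held for 48.1% of all genes and 55.2% of protein-coding genes tested. Since the family was picked with this comparison known, these counts are a description. UPK1B, TSPAN7, TSPAN33 and TSPAN18 averaged under 0.5 FPKM in one group and were tested only through their level in the other, so their FDRs are not printed as support. Without UPK1B the median log2 fold change was 0.11 over the tested members and -0.02 over all genes tested, and the median absolute change was 0.45 and 0.35. Apart from UPK1B, leaving out any single Ctrl library, or MIR21-KO replicate 2, kept CD82, ROM1 and TSPAN7 called higher and TSPAN13 and TSPAN15 called lower. The calls of TSPAN9, TSPAN2, TSPAN14 and TSPAN33 were lost in each of these fits. Without MIR21-KO replicate 1, TSPAN9 kept its call as well.

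**Figure D2:**
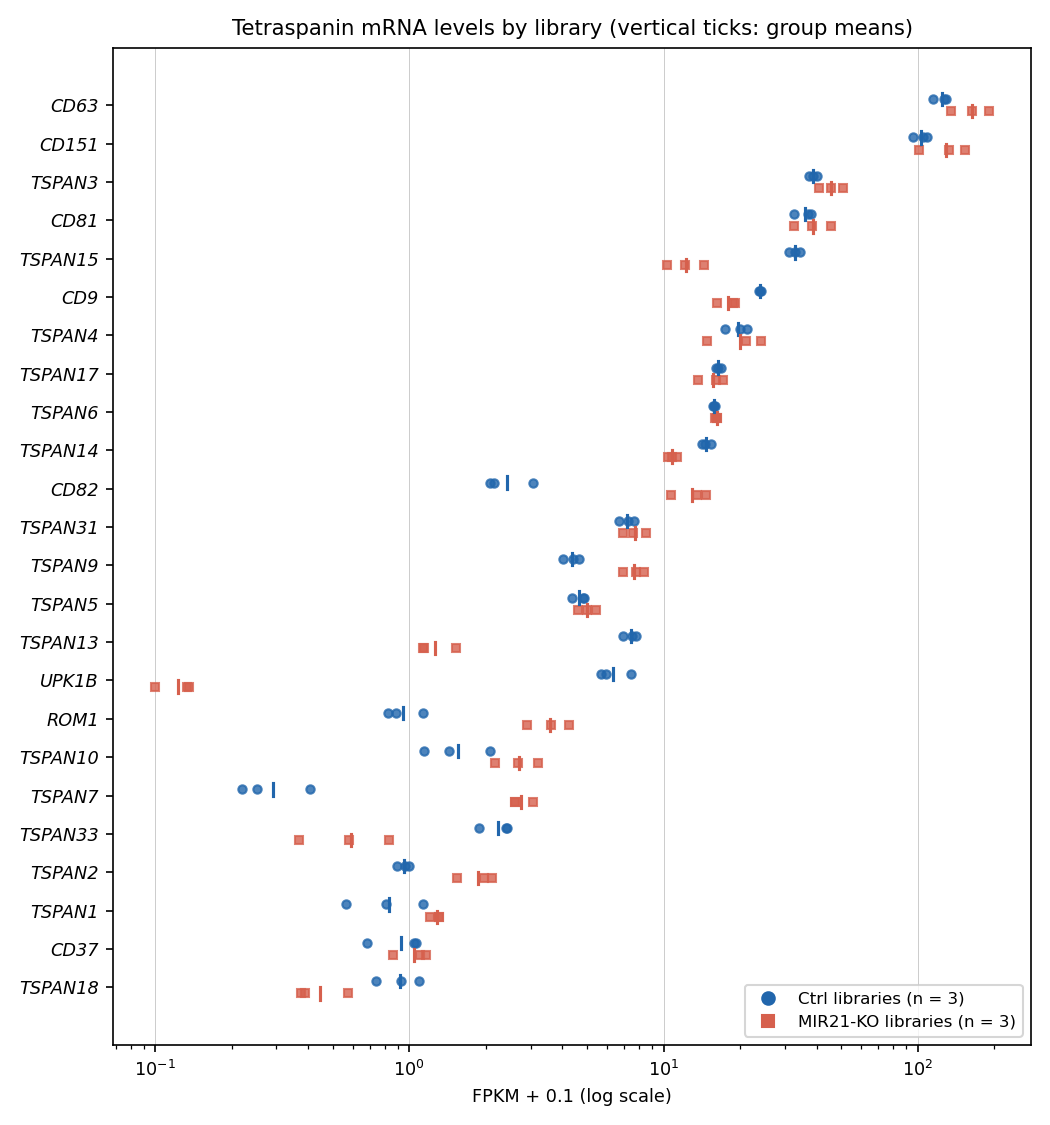
FPKM + 0.1 of the 24 tested tetraspanin genes on a log axis, with circles for the 3 Ctrl libraries, squares for the 3 MIR21-KO libraries and vertical ticks for group means. Genes are ordered by mean level, from CD63 at 115 to 191 FPKM to TSPAN18 at 0.276 to 0.996 FPKM. The squares stand clear to the left of the circles for UPK1B, TSPAN13, TSPAN15 and TSPAN33 and clear to the right for CD82, ROM1 and TSPAN7.

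UPK1B encodes a uroplakin, which in the bladder lining pairs with another uroplakin to form rigid membrane plaques. The gene (ENSG00000114638) lies at chr3:119173517-119205153 on the plus strand (GRCh38, GENCODE 29) and has up to 8 exons. UPK1B had 5.82, 5.58 and 7.36 FPKM in the Ctrl libraries and 0, 0.0360 and 0.0340 FPKM in the MIR21-KO libraries. In reads, these were 168, 136 and 228 against 0, 1 and 1. The level in MIR21-KO was at least 61.0-fold lower, taking 3 reads per library as the floor that a count this small allows, a limit that covers counting error only. At 6.25 ± 0.963 FPKM (SD, n = 3) UPK1B stood at the 58.9th percentile of tested genes in Ctrl, close to TSPAN13 among the members. UPK1A, the other uroplakin of the family, had 0 to 5 reads in every library and was not tested.

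Genes beside UPK1B on chromosome 3 were called in both directions. B4GALT4, a galactosyltransferase gene whose near end lies 6579 bases after UPK1B on the opposite strand, had 10.4, 11.5 and 10.1 FPKM in Ctrl and 3.78, 3.97 and 3.36 in MIR21-KO. This was a fall on the log2 scale of -1.50 ± 0.101 (SE, limma FDR 0.000186). ARHGAP31, a GTPase-activating protein, begins 89220 bases after UPK1B and went from 1.67, 1.19 and 1.25 to 3.19, 4.15 and 5.35 FPKM (log2 fold change 1.55 ± 0.222, limma FDR 0.00317). On the other side, IGSF11, an adhesion molecule 27449 bases away, had 0.786, 0.531 and 0.776 FPKM in Ctrl and 0.0150, 0.0667 and 0.0157 in MIR21-KO, below the filter. C3orf30, between IGSF11 and UPK1B, was listed at 0 throughout, as was AC083800.1, an annotated gene that shares exon sequence with UPK1B on its own strand.

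**Figure D3:**
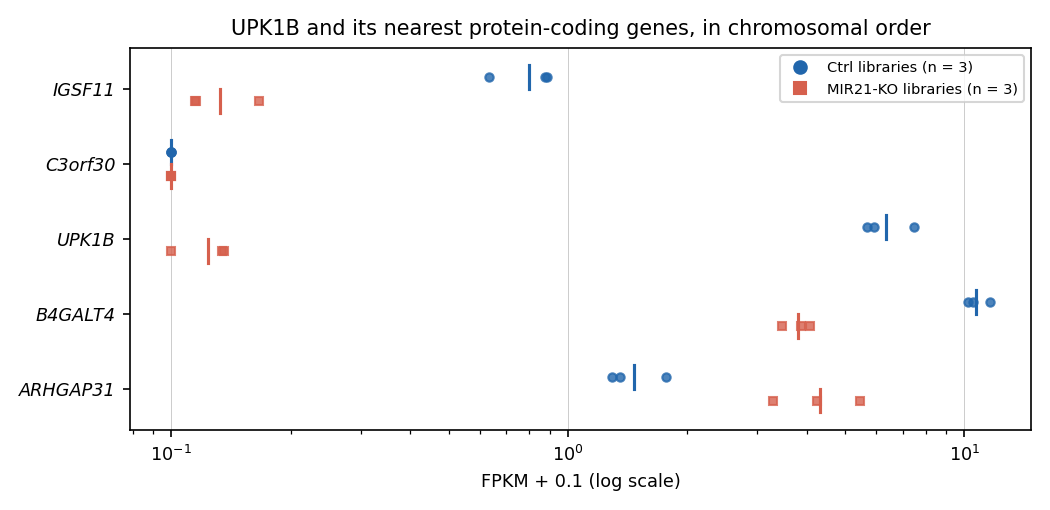
FPKM + 0.1 on a log axis for UPK1B and the 2 nearest protein-coding genes on each side, listed in chromosomal order, with circles for Ctrl libraries, squares for MIR21-KO libraries (n = 3 each) and vertical ticks for group means. The MIR21-KO squares lie left of the Ctrl circles for IGSF11, UPK1B and B4GALT4, right of them for ARHGAP31, and both groups sit at 0 FPKM for C3orf30.

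The TspanC8 members (TSPAN5, TSPAN10, TSPAN14, TSPAN15, TSPAN17 and TSPAN33) escort the protease ADAM10 out of the endoplasmic reticulum and influence which substrates it cuts. All 6 were tested, 3 were called lower and 0 higher, 3 did not pass, and their median log2 fold change was -0.26. TSPAN33 is among the 3 called and was tested only through its Ctrl level, so the count is a description. Over protein-coding genes tested, 10.6% were called lower and the median was -0.04. TSPAN15, linked to cleavage of N-cadherin, had 31.1, 34.3 and 32.7 FPKM in Ctrl and 14.3, 12.0 and 10.2 in MIR21-KO. Every MIR21-KO library was thus below every Ctrl library, a 2.69-fold lower mean (log2 fold change -1.43 ± 0.127 SE, limma FDR 0.000532), and the call held in all 16 alternatives tried. TSPAN14 had 15.3, 14.1 and 14.5 FPKM in Ctrl and 10.7, 11.2 and 10.3 in MIR21-KO. This smaller fall (-0.45 ± 0.074, limma FDR 0.00510) kept its direction in all 16 alternatives and its call in 8, with FDRs from 0.00191 to 0.0388. TSPAN33, the third, is known from blood cell development and went from 2.29, 2.33 and 1.78 FPKM to 0.480, 0.267 and 0.729, which rested on 67 to 80 reads against 9 to 26. It reached the filter through Ctrl alone. Its log2 fold change was -1.98 ± 0.322, and the call was lost without any single Ctrl library, MIR21-KO replicate 1 or MIR21-KO replicate 2.

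The remaining TspanC8 members did not pass the test. TSPAN17 had 16.7, 16.3 and 16.0 FPKM in Ctrl and 17.0, 16.0 and 13.6 in MIR21-KO, which overlap (log2 fold change -0.08, 95% confidence interval -0.31 to 0.15). TSPAN5 had a log2 fold change of 0.10 (-0.15 to 0.34). TSPAN10, higher in each MIR21-KO library than in any Ctrl library, had 1.04 to 1.98 and 2.07 to 3.12 FPKM and a log2 fold change of 0.82 ± 0.260 (limma FDR 0.0524). ADAM10 itself had 14.0, 11.9 and 12.8 FPKM in Ctrl and 7.24, 8.22 and 10.2 in MIR21-KO, and its log2 fold change of -0.60 ± 0.138 did not pass (limma FDR 0.0175).

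Among the 7 members named as CD antigens, 6 were tested and CD82 was the single call. This share of 16.7% was near the 16.0% of all genes tested that were called. CD82 had 2.05, 2.96 and 1.97 FPKM in Ctrl and 14.6, 13.4 and 10.6 in MIR21-KO. It rose 5.53-fold in mean level (log2 fold change 2.43 ± 0.190 SE, limma FDR 0.000336), starting at percentile 34.2 of the genes tested, and the call held in all 16 alternatives. CD82 lies at chr11:44564427-44620363 on the plus strand, and an antisense transcript overlapping its exons had 0.395 ± 0.542 FPKM in Ctrl and 2.37 ± 0.0649 in MIR21-KO. The antisense transcript was not called (limma FDR 0.0301) and rested on 7, 1 and 0 reads against 17, 16 and 17. CD82 had 106 to 129 reads in the Ctrl libraries and 557 to 807 in the MIR21-KO libraries. The libraries mark strand, but whether counting used it is not given in the sources used here, so reads of the pair may not be separate.

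CD63, a marker of late endosomes and extracellular vesicles, was the most abundant member, with 115, 127 and 129 FPKM in Ctrl and 191, 164 and 135 in MIR21-KO. The groups did not overlap, but MIR21-KO replicate 3 lay close to the Ctrl libraries, and the log2 fold change of 0.39 ± 0.137 did not pass (limma FDR 0.0738). Without MIR21-KO replicate 3 it was 0.52 and was called (limma FDR 0.00761). CD151, which binds the laminin-binding integrins, had 95.5, 109 and 105 FPKM against 154, 133 and 101, so that MIR21-KO replicate 3 fell within the Ctrl range (log2 fold change 0.31, interval -0.07 to 0.69). Its exons overlap those of POLR2L on the opposite strand, which had 241 FPKM in Ctrl and 206 in MIR21-KO. Exons of TSPAN10 and CD37 likewise overlap those of NPLOC4 and TEAD2, which were more abundant than either member. How reads of these overlaps were assigned is not given in the sources used here. CD81, a receptor for hepatitis C virus, had 32.5, 37.0 and 37.9 FPKM against 45.4, 38.4 and 32.6. Its log2 fold change of 0.11 (interval -0.21 to 0.42) turned to -0.01 without MIR21-KO replicate 1 and to -0.03 with trends on GC content and gene length removed.

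CD9, needed on the egg for fusion with sperm and widely present on epithelia, had 23.6, 23.9 and 24.0 FPKM in Ctrl and 19.0, 18.6 and 16.1 in MIR21-KO. All 3 MIR21-KO libraries lay below the narrow Ctrl range, and the log2 fold change of -0.42 ± 0.084 just missed the threshold (limma FDR 0.0107). It was called in 6 of 16 alternatives, with FDRs from 0.000578 to 0.0491. CD37, best known from B cells, overlapped between groups at a mean of 0.884 FPKM (log2 fold change 0.18, interval -0.45 to 0.81). CD53, a leukocyte member, had at most 2 reads in a library and was not tested.

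Of the other 16 TSPAN genes, 10 were tested, 3 were called higher and 1 lower, beside 7.66% and 8.38% of all genes tested. TSPAN7 is among the 3 and was tested only through its MIR21-KO level, so the count is a description. TSPAN13, also known as NET-6, had 6.82, 7.44 and 7.69 FPKM in Ctrl and 1.42, 1.03 and 1.04 in MIR21-KO. It fell 6.29-fold in mean level (log2 fold change -2.57 ± 0.150 SE, limma FDR 0.000124), the largest decrease among the members after UPK1B, and the call held in all 16 alternatives. TSPAN7, a gene of the X chromosome in which mutations cause intellectual disability, had 0.152, 0.120 and 0.306 FPKM in Ctrl and 2.97, 2.50 and 2.50 in MIR21-KO. In reads these were 6, 4 and 13 against 126, 95 and 101. The mean was 13.8-fold higher (log2 fold change 3.29 ± 0.292), the largest increase among the tested members. TSPAN7 reached the filter through MIR21-KO alone, so this is given as a description.

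TSPAN9, first studied in platelets, went from 3.94, 4.54 and 4.32 FPKM in Ctrl to 7.71, 8.25 and 6.80 in MIR21-KO. All 3 MIR21-KO libraries were above the Ctrl range (log2 fold change 0.81 ± 0.108 SE, limma FDR 0.00230), though the call was lost without any single Ctrl library or MIR21-KO replicate 2, with FDRs up to 0.0157. TSPAN2, a myelin-associated member and the one with the heptamers shown above, had 0.898, 0.791 and 0.858 FPKM in Ctrl and 1.87, 1.44 and 2.01 in MIR21-KO. Its 2.09-fold higher mean rested on 29 to 40 reads against 60 to 89 (log2 fold change 0.97 ± 0.185, limma FDR 0.00867). The call was lost on leaving out any of the 6 libraries, with FDRs from 0.0181 to 0.0334, while the log2 fold change remained between 0.88 and 1.11.

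The other abundant TSPAN genes differed less. TSPAN3 had 37.3, 40.0 and 38.7 FPKM in Ctrl and 50.8, 45.5 and 40.7 in MIR21-KO (log2 fold change 0.23 ± 0.096, limma FDR 0.110). TSPAN4, known from the migrasomes left behind by moving cells, had 17.4, 21.3 and 19.9 FPKM against 24.0, 21.0 and 14.7. The MIR21-KO libraries lay on both sides of the Ctrl range, and the log2 fold change was 0.00 with an interval from -0.44 to 0.44. TSPAN6 was the steadiest abundant member at 15.7, 15.5 and 15.8 against 16.2, 15.9 and 16.1 FPKM (log2 fold change 0.04, interval -0.11 to 0.19). TSPAN31, whose exons overlap those of CDK4 on the opposite strand, had a log2 fold change of 0.09 (-0.16 to 0.35). TSPAN1 and TSPAN18 were low, with log2 fold changes of 0.67 (limma FDR 0.120) and -1.06 (not called).

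ROM1 and PRPH2 form the rims of photoreceptor discs. ROM1 had 0.724, 0.783 and 1.03 FPKM in Ctrl and 3.50, 4.13 and 2.81 in MIR21-KO, from 21 to 35 reads against 91 to 126. It was 4.12-fold higher in mean level (log2 fold change 1.92 ± 0.201 SE, limma FDR 0.000978), and the call held in all 16 alternatives. PRPH2 had 1 read in all 6 libraries together. The photoreceptor marker GNAT1 likewise had at most 1 read in a library. Exons of ROM1 overlap those of EML3 on the opposite strand, and EML3 was also called higher, from 5.58 ± 0.511 to 9.00 ± 1.21 FPKM (log2 fold change 0.67 ± 0.126, limma FDR 0.00820). How reads of that overlap were assigned is not given in the sources used here.

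The 9 members that were not tested were all low in both groups. TSPAN12, which amplifies norrin signalling through FZD4, came nearest to the filter with a mean of 0.153 FPKM and 2 to 9 reads, against 0.583 FPKM for TSPAN18 just inside it. TSPAN19 and UPK1A had 0 to 5 reads, TSPAN11 had 1 to 3, CD53 had 0 to 2, and PRPH2 and TSPAN32 had 0 or 1. TSPAN8 and TSPAN16 were listed at 0 in all 6 libraries, which still allows a level expected to give up to 3 reads in each.

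**Figure D4:**
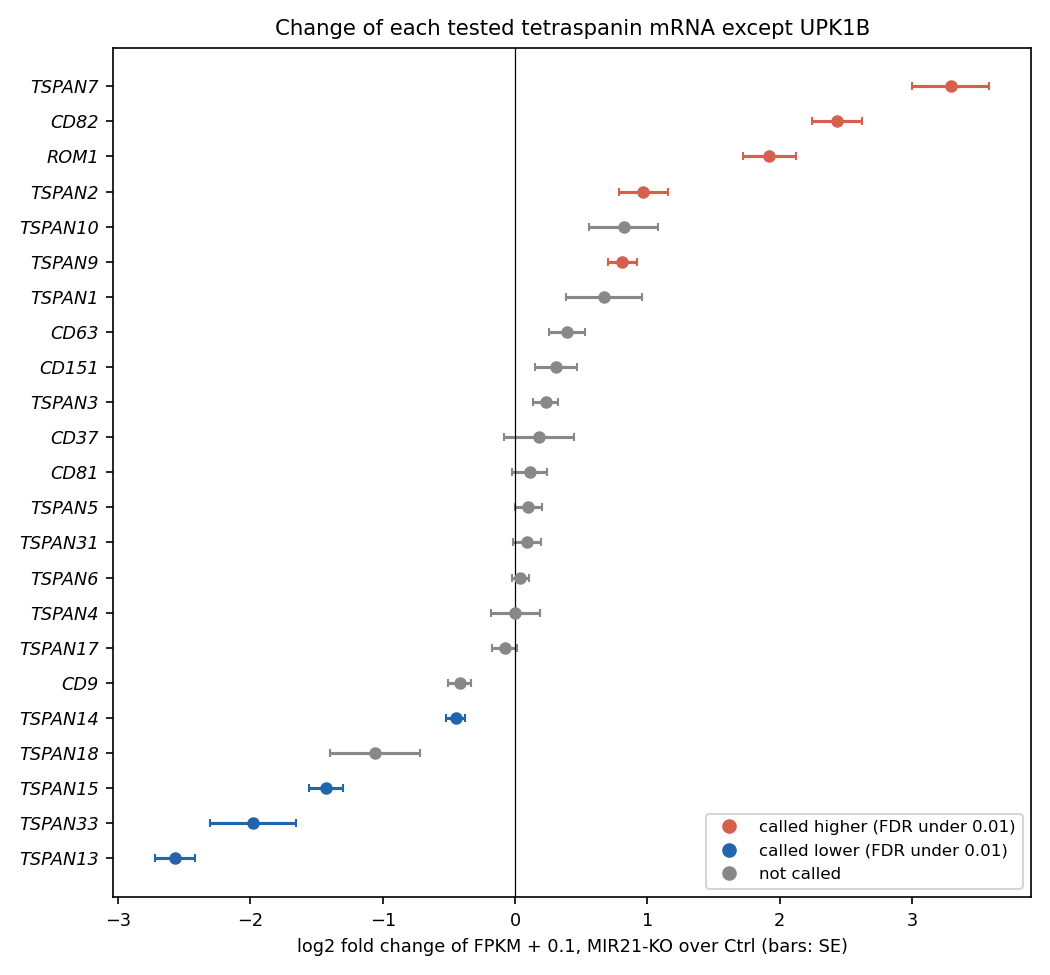
Log2 fold change of FPKM + 0.1, MIR21-KO over Ctrl, for the 23 tested tetraspanin genes other than UPK1B (horizontal axis, bars are SE), ordered by size and coloured by call at an FDR under 0.01. Called genes reach from -2.57 (TSPAN13) to 3.29 (TSPAN7), and 8 of the 10 most abundant members lie between -0.42 and 0.39 and are not called.

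By level, 2 of the 10 most abundant members were called (TSPAN15 and TSPAN14, both lower) and the median absolute log2 fold change was 0.27. Among the other 13 tested members, UPK1B left out, 7 were called and the median was 0.97. Of 3449 protein-coding genes at or above the level of the tenth member, 25.2% were called with a median absolute change of 0.30, and of the 8270 below it 17.4% were called with 0.33. TSPAN7, TSPAN33 and TSPAN18 are among the 13, and no test of the difference by level was made. The SD of the MIR21-KO libraries exceeded that of Ctrl in 18 of 24 members (75.0%), against 69.5% of all genes tested. MIR21-KO replicate 1 was above replicate 3 in 10 of 10 abundant members and in 19 of 24 tested members, against 52.0% of all genes tested. Across the 10 abundant genes this gap, on the same scale, rose with GC content (Pearson r 0.85, Spearman rho 0.77). Across the 24 tested members the values were 0.42 and 0.50, and across all genes with a known GC content they were 0.28 and 0.43 (n = 15955). Genes are not replicates and all points share the same libraries, so no p-value is given. With trends on GC content and gene length removed, CD63 was called higher (log2 fold change 0.32, limma FDR 0.00715) and CD9 lower (-0.45, limma FDR 0.000578).

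Known partners of tetraspanins were listed from textbook knowledge. Of 29 partners, 25 were tested, 2 were called higher and 5 lower, 18 did not pass, and the median log2 fold change was -0.18. These 7 calls of 25 stand beside 16.0% of all genes and 19.7% of protein-coding genes called. UPK3B is among the 7 and reached the filter through Ctrl alone, so the count is a description. SDC1, a syndecan whose tail is bound by syntenin, rose from 83.8, 84.1 and 82.9 to 163, 156 and 146 FPKM (log2 fold change 0.89 ± 0.076 SE, limma FDR 0.000435). SDCBP, which encodes syntenin, fell from 45.7, 47.2 and 46.4 to 32.9, 34.5 and 37.6 FPKM (-0.41 ± 0.076, limma FDR 0.00775). Syntenin also binds CD63.

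Integrins that bind laminin and CD151 moved in different directions. ITGA3 rose from 41.3 ± 1.13 to 60.3 ± 1.74 FPKM (SD, n = 3; log2 fold change 0.54 ± 0.067, limma FDR 0.00171), and ITGB4 fell from 15.8 ± 1.05 to 11.0 ± 0.215 (-0.52 ± 0.077, limma FDR 0.00352). ITGA6 had 11.9 ± 0.475 and 8.04 ± 1.63 FPKM and did not pass (limma FDR 0.0214), nor did ITGB1, which overlapped at 277 to 305 and 274 to 389 FPKM. The immunoglobulin-superfamily partners of CD9 and CD81 were not called either, with log2 fold changes of 0.44 for IGSF8 (limma FDR 0.0423) and 0.19 for PTGFRN (limma FDR 0.234). IGSF3, another listed partner of this superfamily, went the other way and was also not called (-0.55, limma FDR 0.0132).

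CLDN1, a tight junction protein known to associate with CD81, fell from 32.1, 30.4 and 29.4 to 9.36, 9.28 and 11.2 FPKM (log2 fold change -1.62 ± 0.094 SE, limma FDR 0.000122). EGFR, whose signalling CD82 is known to dampen, fell from 24.8, 19.5 and 20.5 to 7.33, 9.44 and 12.8 FPKM (-1.15 ± 0.204, limma FDR 0.00689). UPK3B, which joins UPK1B in plaques, had 2.86, 2.52 and 2.75 FPKM in Ctrl and 0.607, 0.522 and 0.319 in MIR21-KO (-2.30 ± 0.234). It averaged 0.483 FPKM in MIR21-KO and reached the filter through Ctrl alone. UPK2, the partner of UPK1A, overlapped between the groups at 0.793 to 1.35 and 0.664 to 1.46 FPKM, and UPK3A was listed at 0. The partner counts moved with single libraries: without Ctrl replicate 1 or 3, or MIR21-KO replicate 2, 1 was called higher and 2 lower, without Ctrl replicate 2 these were 1 and 3, and without MIR21-KO replicate 3 they were 3 and 10.

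**Figure D5:**
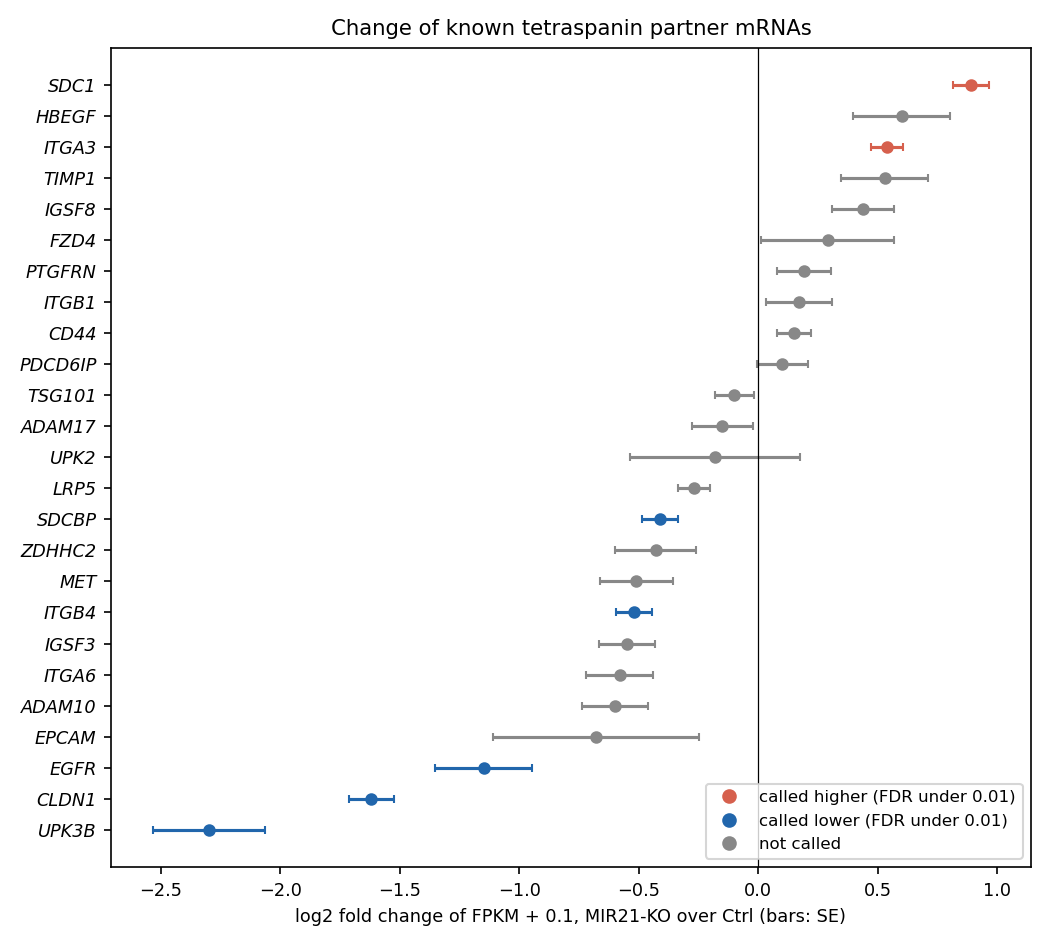
Log2 fold change of FPKM + 0.1, MIR21-KO over Ctrl, for the 25 tested partner genes (horizontal axis, bars are SE), ordered by size and coloured by call at an FDR under 0.01. SDC1 at 0.89 and UPK3B at -2.30 mark the ends, and 18 genes in grey were not called.

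The L6 family, whose proteins have a similar membrane layout but are not tetraspanins, was described beside them. Of 6 genes, 5 were tested, 3 were called lower and 0 higher, and the median log2 fold change was -1.08, whereas 8.38% of all genes and 10.6% of protein-coding genes tested were called lower. TM4SF4 fell from 8.66, 9.78 and 9.84 to 1.13, 1.07 and 1.04 FPKM (log2 fold change -3.01 ± 0.106 SE, limma FDR 2.50e-05). TM4SF18 fell from 14.3 ± 0.916 to 6.69 ± 0.615 FPKM (SD, n = 3). TM4SF20 had 1.73 ± 0.0586 FPKM in Ctrl and 0.344 ± 0.0877 in MIR21-KO and reached the filter through Ctrl alone. TM4SF1, the most abundant, had 92.1 ± 5.08 and 76.2 ± 4.54 FPKM and did not pass (limma FDR 0.0451), nor did TM4SF19 (limma FDR 0.893).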

How the data were processed

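PolyA RNA was sequenced from 3 Ctrl and 3 MIR21-KO libraries of A549 cells, made strand-specific per the labels. The submitters' processing notes name cutadapt 1.14, HISAT2 2.1.0, SAMtools 1.5, featureCounts 1.5.3, edgeR 3.18.1 and the build hg38. The annotation, the strand setting and the treatment of shared reads are not given in the sources used here. The authors deposited FPKM values per gene and library. Their own log2 fold changes, p-values and FDRs were not used. FPKM times gene length gave whole reads for 100% of values (tolerance 0.01 read), and the recovered reads gave the depths.

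The model was limma 3.58.1 (R 4.3.3; eBayes, trend and robust options, no covariate), run on log2(FPKM + 0.1) across every gene whose mean reached 0.5 FPKM, and the code was tested on simulated data. In the fit of recovered reads, voom was used. Groups and replicate numbers came from the sample titles. Same-numbered libraries did not deviate together (correlations of deviations -0.171, -0.0177 and -0.0174), so numbers were not treated as pairs. Coordinates and 3′ UTRs came from GENCODE 29, which matched 57836 of 58174 genes and all 33 members.

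The members and gene lists were chosen with earlier results of these data known. Values per library were given for UPK1B, the called members and the 10 most abundant. Partners were named where called, along with ADAM10, ITGA3, ITGA6, ITGB1, IGSF8 and PTGFRN. IGSF11 belonged to the lists as a nearest protein-coding gene of UPK1B, and UPK2 and UPK3A as partners and markers of the bladder lining. The details on UPK2, UPK3A, TSPAN10 and IGSF3 were added after their values were seen. Alternatives changed the pseudocount, filter, scaling, variance model, unit, features tested, replicate block, libraries and call threshold. The removal of trends on GC content and gene length was added after seeing the data. Some cell type markers are not reported here.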

Additional observations from a re-analysis of the deposited data

How the results depend on the processing

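The 5 tetraspanins called higher became 3 with the replicate block, and 3 to 5 on leaving out 1 library. With a filter at 2 FPKM they became 3, because TSPAN7 and TSPAN2 (means 1.42 and 1.31 FPKM) were no longer tested. CD82, TSPAN9 and ROM1 kept their calls there. The 5 lower, UPK1B included, became 3 with no filter and 3 with the replicate block, and 3 to 6 on leaving out 1 library. UPK1B picked out the family and is in each of these lower counts, so its part in them is no support. For partners, the 2 called higher became 1 with the replicate block, 5 with GC and length trends removed, and 1 to 3 on leaving out 1 library. The 5 called lower became 3 with no filter, 2 without trend or robust fitting, 8 with voom, 8 with protein-coding genes only, 2 with the replicate block, 8 with trends removed, 10 at an FDR under 0.05, and 2 to 10 on leaving out 1 library. Over all genes, 2568 calls became 651 with the replicate block, 3496 with voom, 3958 with trends removed, 5114 at an FDR under 0.05 and 784 to 3418 on leaving out 1 library. Replicate numbers did not pair the libraries, and fewer calls under the block are not a weaker effect. Members whose log2 fold change turned were all uncalled: CD81 (-0.03 with trends removed, -0.01 to 0.22 on leaving out 1 library), TSPAN4 (-0.01 with median-ratio scaling, -0.13 with trends removed, -0.15 to 0.20 on leaving out 1 library), TSPAN17 (-0.15 to 0.02) and CD37 (-0.03 to 0.31). The causes were not tested. The fitted change of UPK1B ran from -2.82 with a pseudocount of 1 FPKM to -7.83 with 0.01 FPKM, so the report gives its fold as a bound. The calls of TSPAN14, TSPAN9, TSPAN33 and TSPAN2 were lost in some alternatives, while those of TSPAN15, TSPAN13, CD82 and ROM1 held in all 16. The 9 untested members had at most 9 reads in a library, so changes there were not detectable at this depth.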
